A study of Homo sapiens with 17 samples.

Results

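The 31 genes described here carry out glycolysis and the handling of lactate and pyruvate. They were chosen by symbol, for what they encode and with earlier results of these data known, from 41040 named genes in the count tables. All 31 had enough counts to be tested, as did 16891 genes in all. The genes cover glucose import, the steps from glucose to pyruvate, lactate dehydrogenase and the lactate carriers, and pyruvate dehydrogenase with its kinases. RNA was sequenced from IMR-90 cells, a diploid fibroblast line from human lung, in 3 groups. The week 0 group (n = 5 libraries) was untreated and is labelled non-senescent. The week 1 and week 4 groups (n = 6 each), labelled senescent, received 20 µM etoposide for 48 h. Etoposide poisons topoisomerase II and leaves DNA breaks. The cells were then kept in culture without the drug until harvest. Untreated cells were collected at week 0 only, so treatment and time in culture cannot be told apart. Whether replicates came from separate cultures is not stated in the labels, so p-values reflect differences among these libraries, and that spread may be technical.

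Glycolysis splits glucose into pyruvate in the cytosol and yields a little ATP and NADH. Lactate dehydrogenase turns pyruvate into lactate, which leaves the cell through monocarboxylate carriers. Alternatively pyruvate enters mitochondria, where the pyruvate dehydrogenase complex commits it to the tricarboxylic acid cycle, unless pyruvate dehydrogenase kinases have switched the complex off. Fibroblasts in culture are known to use much glucose and to release lactate, and many of these genes are known targets of hypoxia-inducible factor and MYC.

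Each library held 77.16 to 102.82 M counts in named genes. Levels are given as CPM, the usual counts scaled to library size, with library sizes corrected by TMM factors. The members took 1.64 ± 0.053% of the counts at week 0, 2.24 ± 0.055% at week 1 and 2.10 ± 0.055% at week 4 (mean ± SD). Week 0 replicates 1 and 4 stood apart: ribosomal protein genes took 6.38% and 5.62% of their counts, against 3.48% to 4.20% in the other week 0 libraries. All marker values that follow are CPM on library totals, without the TMM factors. Those factors were 1.08 to 1.11 at week 0, 0.968 to 0.990 at week 1 and 0.938 to 0.975 at week 4. On the TMM scale the marker values of weeks 1 and 4 would therefore stand higher relative to week 0. All 10 fibroblast markers were above 1 CPM in every group. Their sum ran from 32964 to 38877 CPM at week 0, 42696 to 44746 at week 1 and 54470 to 57577 CPM at week 4. The sum was led by COL1A1, which averaged 18423 CPM at week 0 and 27165 CPM at week 4. Not all of these markers rose: DCN averaged 1598 and 1236 CPM, PDGFRA 391 and 277 CPM and VIM 1945 and 1638 CPM at weeks 0 and 4. The others averaged more at week 4 than at week 0. Of 7 epithelial markers, 3 (KRT8, KRT18 and KRT19) were above 1 CPM, and the sum of the 7 ran from 65.0 to 71.5 CPM at week 0, 235 to 275 at week 1 and 193 to 213 CPM at week 4. EPCAM averaged 0.344, 0.311 and 0.176 CPM at weeks 0, 1 and 4, and the epithelial genes KRT5 and KRT14 were at 0 in all week 0 libraries. The 5 endothelial markers summed to 83.8 to 103.4 CPM at week 0, 58.3 to 62.2 at week 1 and 51.98 to 76.6 CPM at week 4, led by TEK. None of 6 leukocyte markers reached 1 CPM. The sum of 6 smooth muscle and pericyte markers ran from 871 to 961 CPM at week 0, 769.7 to 829.9 at week 1 and 750.4 to 875 CPM at week 4, led by ACTA2. These markers differed from each other. At weeks 0, 1 and 4, ACTA2 averaged 537, 394 and 451 CPM, CSPG4 225, 154 and 191 CPM and CNN1 150, 222 and 146 CPM. RGS5 averaged 6.29, 34.8 and 34.4 CPM, DES 0.821, 2.53 and 3.39 CPM and MYH11 0.101, 0.045 and 0.138 CPM. The sum of 4 skeletal muscle and adipocyte markers, led by DES, reached 1.29 CPM at week 0, 3.28 at week 1 and 4.44 CPM at week 4. The part of these markers in the results below was not tested.

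Most of the 31 genes were higher after etoposide, both at week 1 and at week 4. At week 1 against week 0, 25 rose, 3 fell (PFKP, LDHB and PDK4) and 3 did not pass (ENO1, PDHA1 and PDHB), with a call at an adjusted p under 0.05 in edgeR's quasi-likelihood test over all tested genes. Calls were common across the transcriptome: 66.9% of tested genes were called in that comparison, 32.9% as higher and 34% as lower. At week 4 against week 0, 25 rose, 2 fell (PFKP and LDHB) and 4 did not pass (PFKM, PKM, PDHA1 and PDHB), where 67.6% of tested genes were called, 33.9% as higher and 33.7% as lower. The median log2 fold change of the 31 genes was 0.77 at week 1 and 0.78 at week 4, while that of all tested genes was -0.02 and 0.00. These 2 comparisons share the week 0 libraries. In bulk RNA, fewer cells that express a gene and less of its RNA per cell cannot be told apart.

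A change of more than 2-fold with a call was seen at week 1 against week 0 for 11 members (20.7% of all tested genes), 10 of them higher and 1 lower (11.6% and 9.08% of all tested genes). At week 4 against week 0 it was seen for 9 members (19.7% of all tested genes), each of them higher (12.1% higher and 7.55% lower over all tested genes). Between the treated time points the genes divided: at week 4 against week 1, 10 rose, 7 fell and 14 did not pass, where 40.5% of tested genes were called, 21.8% as higher and 18.6% as lower. The median log2 fold change was 0.00 for the 31 genes and 0.01 for all tested genes. Only PDK3 and PDK4 among the 31 were more than 2-fold higher at week 4 than at week 1, where 4.13% of tested genes passed that limit and 2.99% did so as higher. By pattern, 11 members rose at both times against week 0 and did not pass between weeks 4 and 1 (35.5% of the 31, against 14.1% of all tested genes). A further 8 rose in all 3 comparisons (25.8%, against 5.96% of all tested genes). HK2, ALDOA, PGAM1 and SLC16A3 rose at both times against week 0 and fell at week 4 against week 1 (12.9%, against 6.75% of all tested genes). On library totals without scaling factors, the whole set of tested genes had median log2 fold changes of -0.18, -0.19 and -0.02 in turn, and 23 members were called higher and 5 lower at week 1 and 24 higher and 5 lower at week 4, each against week 0. The share of called genes that were higher was then 36.9%, 35.4% and 47.2% over all genes, against 49.2%, 50.1% and 53.9% with the factors, so changes below are relative to the TMM scale.

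**Figure D1:**
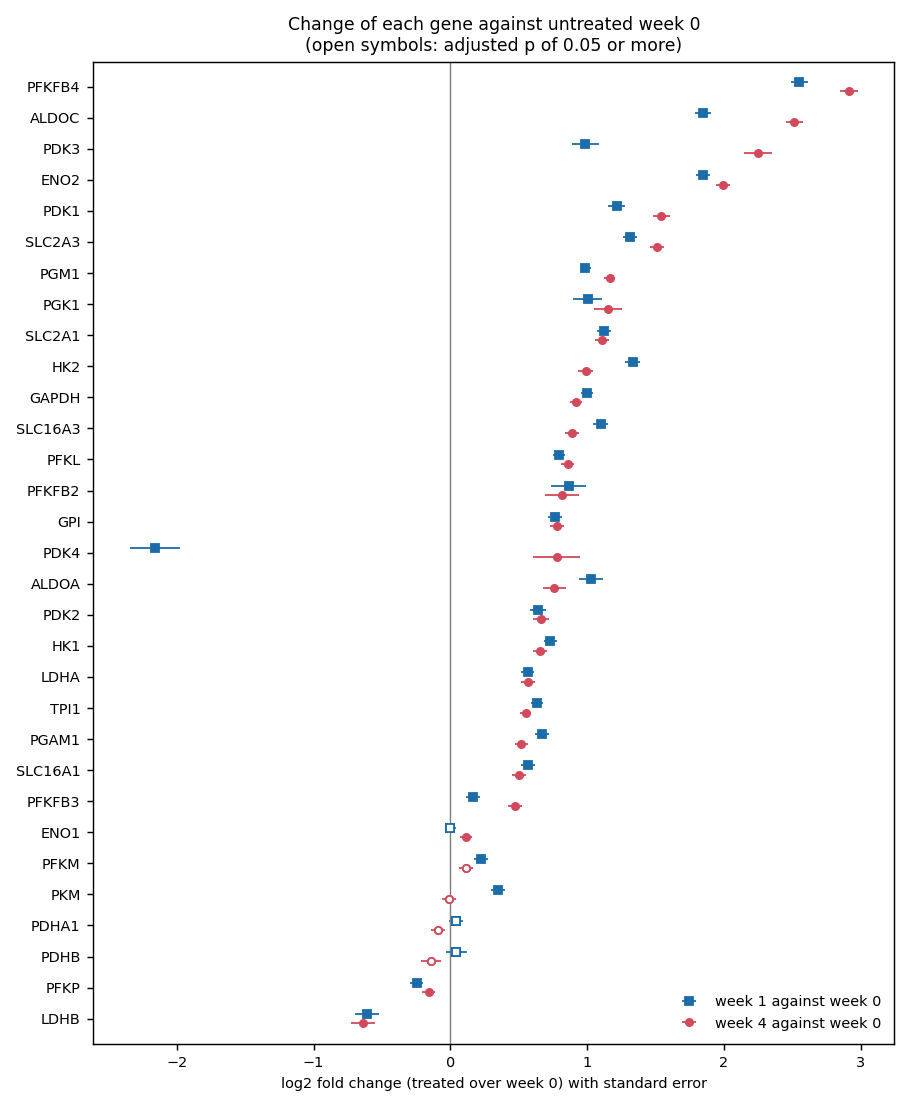
Log2 fold change of each of the 31 genes at week 1 against week 0 (squares) and at week 4 against week 0 (circles), with its standard error; open symbols did not pass at an adjusted p of 0.05. Most genes lie right of 0 at both times, PFKFB4 lies farthest right, and PDK4 lies at -2.16 for week 1 and 0.78 for week 4.

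The 3 genes with the largest fold change at week 4 against week 0 were PFKFB4, ALDOC and PDK3, and PDK4 was the member that fell at week 1 and rose at week 4. Their promoter windows are shown because these 4 genes carry the largest changes and the change of direction. Each window is taken from RefSeq (build GRCh38.p14), runs from 250 bases before to 50 bases after the annotated start, and is printed 5′ to 3′ on the gene's own strand. Capitals mark ACGTG or GCGTG on either strand, the core letters to which hypoxia-inducible factor is known to bind, and CACGTG is marked through the ACGTG within it. The windows lie at chr3:48556754-48557053 (minus strand, PFKFB4), chr17:28576846-28577145 (minus strand, ALDOC), chrX:24465036-24465335 (plus strand, PDK3) and chr7:95596467-95596766 (minus strand, PDK4).
PFKFB4: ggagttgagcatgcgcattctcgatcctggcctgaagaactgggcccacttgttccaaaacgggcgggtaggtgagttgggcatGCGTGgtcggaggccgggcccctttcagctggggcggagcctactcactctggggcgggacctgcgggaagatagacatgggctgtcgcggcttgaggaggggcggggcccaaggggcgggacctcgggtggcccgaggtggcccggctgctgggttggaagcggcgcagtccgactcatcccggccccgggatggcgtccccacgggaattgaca
ALDOC: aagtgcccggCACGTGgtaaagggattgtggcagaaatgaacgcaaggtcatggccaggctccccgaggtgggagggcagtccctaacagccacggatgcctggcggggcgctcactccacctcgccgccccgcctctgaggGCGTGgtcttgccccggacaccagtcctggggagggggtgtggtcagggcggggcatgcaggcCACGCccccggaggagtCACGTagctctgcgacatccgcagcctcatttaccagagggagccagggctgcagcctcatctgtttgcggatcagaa
PDK3: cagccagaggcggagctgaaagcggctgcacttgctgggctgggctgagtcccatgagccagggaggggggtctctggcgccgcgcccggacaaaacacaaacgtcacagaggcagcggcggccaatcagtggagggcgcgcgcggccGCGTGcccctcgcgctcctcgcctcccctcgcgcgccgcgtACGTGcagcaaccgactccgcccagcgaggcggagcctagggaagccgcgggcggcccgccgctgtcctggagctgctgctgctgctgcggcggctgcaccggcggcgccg
PDK4: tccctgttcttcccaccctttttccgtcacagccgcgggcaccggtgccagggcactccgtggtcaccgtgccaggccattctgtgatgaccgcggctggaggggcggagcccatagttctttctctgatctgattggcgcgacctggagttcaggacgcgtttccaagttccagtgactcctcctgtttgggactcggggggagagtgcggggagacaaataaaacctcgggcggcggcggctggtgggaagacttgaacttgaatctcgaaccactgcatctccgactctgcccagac

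The PFKFB4 window held 1 match, the ALDOC window 5, of which a CACGTG read on both strands gave 2, the PDK3 window 2 and the PDK4 window 0. Of the 31 genes, 28 matched a RefSeq window, and SLC2A3, SLC16A1 and PFKFB2 did not. ACGTG or GCGTG lay in 18 of these 28 windows (64.3%), in 48.4% of all 35116 windows of the same length and in 58.8% of those of tested genes. CACGTG, which MYC and other E-box proteins are known to bind, lay in 4 of the 28 (14.3%), in 7.26% of all windows and in 8.77% of those of tested genes. Each matched member entered with 1 window, whereas the other shares count every window. Tested genes had 17952 windows, so some of those genes were counted more than once. A match describes letters only.

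**Figure D2:**
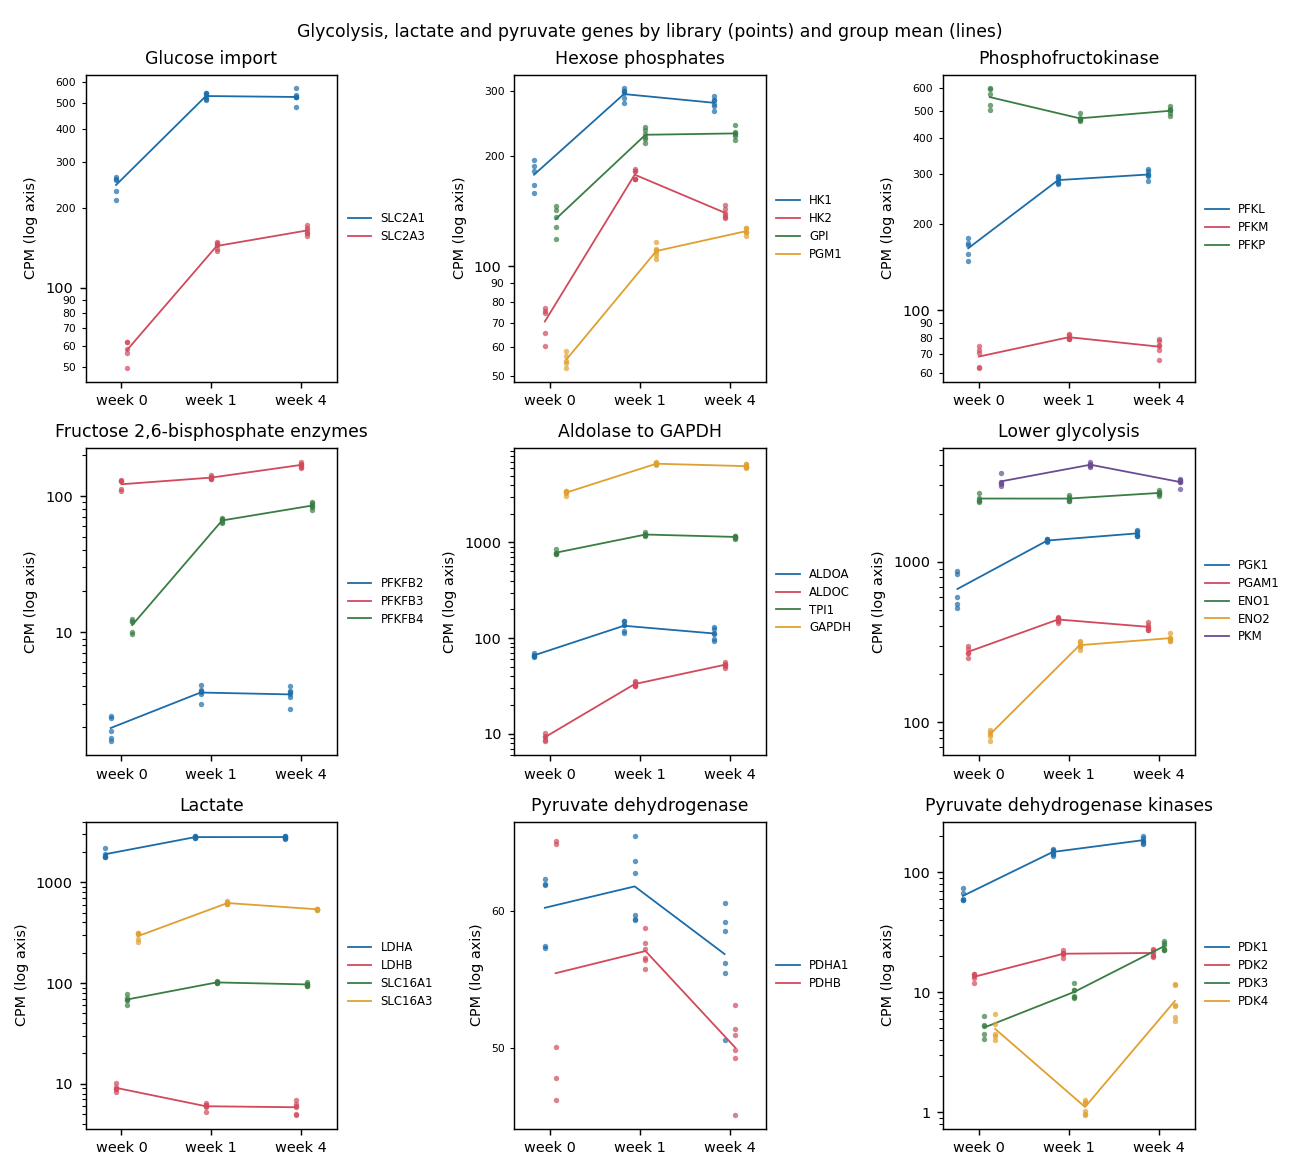
CPM of each gene in every library (points) with group means joined by lines, on log axes, in panels by role, at week 0 (n = 5), week 1 (n = 6) and week 4 (n = 6). Most lines climb between week 0 and week 1 and then stay near level, ENO1, PDHA1 and PDHB lie near level, and PDK4 dips to a mean of 1.11 CPM at week 1.

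Both glucose transporters rose. SLC2A1 encodes GLUT1, the transporter for basal glucose uptake in most cells, and SLC2A3 encodes GLUT3, which has a high affinity for glucose. SLC2A1 had 215, 259, 233, 263 and 255 CPM at week 0, a lowest, median and highest of 515, 534 and 548 CPM at week 1, and of 483, 529 and 569 CPM at week 4. All treated libraries lay above all untreated ones. Its log2 fold change was 1.12 ± 0.05 (SE) at week 1 and 1.11 ± 0.05 at week 4 against week 0 (edgeR adjusted p = 2.1e-14 and 3.0e-14). SLC2A3 had 49.6, 58.6, 56.6, 62.1 and 62.2 CPM at week 0, 137, 145 and 148 CPM (lowest, median, highest) at week 1 and 157, 164 and 173 CPM at week 4. No library of one group reached into another, and the gene rose 2.84-fold at week 4 against week 0 (log2 1.51 ± 0.05, edgeR adjusted p = 1.1e-16) and 1.14-fold at week 4 against week 1. SLC2A3 is nearly identical to SLC2A14, so its reads may be shared.

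Isoform balance was followed as ratios within each library, which do not depend on the scaling of libraries. Over 13 ratios in 3 comparisons, 34 of 39 tests passed (exact permutation, two-sided, Benjamini-Hochberg adjusted). Ratios of other gene pairs were not tested, so this count has no share over all genes to set beside it. Of single tested genes, 66.9% were called at week 1 and 67.6% at week 4 against week 0, and 40.5% at week 4 against week 1. The smallest possible exact p was 0.0043 for comparisons with week 0 and 0.0022 between weeks 1 and 4, and each was 0.0054 once adjusted. The SLC2A3 to SLC2A1 ratio was 1.32 times as high at week 4 as at week 0 (adjusted exact p = 0.0054). Per kilobase of gene length, SLC2A3 made up 17.7 ± 0.464% of the SLC2A1 and SLC2A3 pool at week 0, 19.7 ± 0.442% at week 1 and 22.1 ± 1.06% at week 4.

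The genes that trap and rearrange hexose phosphates all rose. HK1 and HK2 encode hexokinases, which phosphorylate glucose on entry; GPI converts glucose 6-phosphate to fructose 6-phosphate, and PGM1 links glucose 6-phosphate with glucose 1-phosphate and so with glycogen. HK2 had 60.5, 76.7, 65.9, 75.6 and 74.4 CPM at week 0, 173, 177 and 184 CPM (lowest, median, highest) at week 1 and 136, 139 and 147 CPM at week 4. The 3 groups did not overlap, and week 1 was the highest. HK2 rose 2.52-fold at week 1 (log2 1.33 ± 0.05) and 1.98-fold at week 4 (log2 0.99 ± 0.05) against week 0, and fell 1.27-fold at week 4 against week 1 (log2 -0.34 ± 0.05, edgeR adjusted p = 1.0e-05). HK1 rose less, with means of 178 ± 15.1, 295 ± 10.3 and 279 ± 9.32 CPM at weeks 0, 1 and 4, and log2 fold changes of 0.73 ± 0.05 at week 1 and 0.65 ± 0.05 at week 4 against week 0. HK1 remained the larger part of the pool per kilobase: HK2 was 31.6 ± 0.550% of it at week 0, 41.2 ± 0.980% at week 1 and 36.8 ± 0.592% at week 4, and all 3 comparisons of their ratio passed (adjusted exact p = 0.0054).

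GPI averaged 134 ± 11.1 CPM at week 0, 228 ± 8.35 at week 1 and 230.3 ± 6.99 CPM at week 4 (SD), a rise of 1.71-fold at week 4 against week 0 (log2 0.78 ± 0.05, edgeR adjusted p = 5.2e-12). PGM1 rose at each step. It had 52.8, 54.5, 58.8, 55.3 and 56.7 CPM at week 0, 104, 110.3 and 116 CPM (lowest, median, highest) at week 1 and 121, 124 and 127 CPM at week 4, with no overlap between groups. The log2 fold change was 1.16 ± 0.04 at week 4 against week 0 (edgeR adjusted p = 8.8e-17) and 0.18 ± 0.04 at week 4 against week 1 (edgeR adjusted p = 0.00047).

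The 3 phosphofructokinase genes, whose enzymes make fructose 1,6-bisphosphate in the committed step of glycolysis, moved in different directions. PFKL, the liver-type subunit, had 157, 172, 148, 178 and 169 CPM at week 0, 276, 284 and 296 CPM (lowest, median, highest) at week 1 and 283, 299 and 311 CPM at week 4. Every treated library was above every untreated one, a rise of 1.73-fold at week 1 and 1.81-fold at week 4 (log2 0.79 ± 0.05 and 0.86 ± 0.05, edgeR adjusted p = 1.2e-12 and 3.4e-13). PFKP, the platelet-type subunit and the most abundant, had 523, 598, 502, 594 and 573 CPM at week 0, 459, 468 and 490.3 at week 1 and 478, 502 and 518 CPM at week 4. It fell 1.19-fold at week 1 against week 0 (log2 -0.25 ± 0.05, edgeR adjusted p = 6.6e-05) without overlap. Its fall at week 4 against week 0 was 1.12-fold with overlapping libraries (log2 -0.16 ± 0.05, edgeR adjusted p = 0.0043), a call lost with upper-quartile factors (log2 -0.09, edgeR adjusted p = 0.075).

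PFKM, the muscle-type subunit, averaged 68.8 ± 5.43 CPM at week 0, 80.4 ± 1.47 at week 1 and 74.5 ± 4.58 CPM at week 4. It rose 1.17-fold at week 1 against week 0 (edgeR adjusted p = 0.00062), a call lost on library totals without factors (log2 0.06, edgeR adjusted p = 0.28), and had a log2 fold change of 0.12 ± 0.05 at week 4 (edgeR adjusted p = 0.055). At week 4 it was called higher in 9 of 30 other settings, among them RLE and upper-quartile factors, DESeq2 and the stricter filter (log2 0.13 to 0.18, adjusted p = 0.0025 to 0.038), and on library totals without factors it was -0.08 and did not pass. The pool shifted towards PFKL. Per kilobase of deposited length, PFKP took 72.0 ± 0.393% at week 0, 58.4 ± 0.496% at week 1 and 59.5 ± 0.577% at week 4, while PFKL took 18.5 ± 0.261%, 30.9 ± 0.513% and 30.99 ± 0.522%. The PFKP to PFKL ratio at week 4 was 0.494 of that at week 0 (adjusted exact p = 0.0054), and between weeks 1 and 4 it did not pass (adjusted exact p = 0.30).

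The enzymes of fructose 2,6-bisphosphate, the allosteric activator of phosphofructokinase, held the largest rise of all 31 genes. Each of these bifunctional enzymes can make the activator and break it down, and PFKFB3 is known for a strong bias towards making it. PFKFB4 had 9.76, 12.1, 10.1, 11.99 and 12.6 CPM at week 0, 63.5, 66.3 and 68.8 CPM (lowest, median, highest) at week 1 and 78.3, 85.4 and 89.7 CPM at week 4. The lowest week 1 library was above the highest week 0 library by a wide margin, and week 4 lay above week 1 in every library. PFKFB4 rose 5.86-fold at week 1 and 7.53-fold at week 4 against week 0 (log2 2.55 ± 0.06 and 2.91 ± 0.06, edgeR adjusted p = 3.5e-19 and 7.5e-20), and 1.29-fold at week 4 against week 1.

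PFKFB3 had 109, 129.6, 112, 132 and 128 CPM at week 0, 133, 137 and 142 CPM (lowest, median, highest) at week 1 and 162, 169.6 and 178 CPM at week 4. Most of its rise came after week 1: the log2 fold change was 0.16 ± 0.05 at week 1 against week 0, 0.47 ± 0.05 at week 4 against week 0 and 0.31 ± 0.05 at week 4 against week 1 (edgeR adjusted p = 0.0066, 2.5e-08 and 1.7e-05). The week 1 call was lost without week 0 replicates 1 and 4 (log2 0.07, edgeR adjusted p = 0.093) and on library totals without factors (log2 0.00044, edgeR adjusted p = 0.99). PFKFB2, the heart-type enzyme, was low, at 1.98 ± 0.386, 3.61 ± 0.378 and 3.50 ± 0.442 CPM at weeks 0, 1 and 4, and rose 1.76-fold at week 4 against week 0 (log2 0.82 ± 0.13, edgeR adjusted p = 5.8e-06). Per kilobase, PFKFB4 made up 8.39 ± 0.273% of the pool at week 0, 32.3 ± 0.871% at week 1 and 33.2 ± 0.678% at week 4, and PFKFB3 was the larger part throughout. The PFKFB4 to PFKFB3 ratio was 5.44 times as high at week 4 as at week 0 (adjusted exact p = 0.0054) and did not pass between weeks 4 and 1 (adjusted exact p = 0.10).

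All 4 genes of the triose steps rose at both times. Aldolase splits fructose 1,6-bisphosphate, triose phosphate isomerase (TPI1) interconverts the products, and GAPDH carries out the oxidation that yields NADH. ALDOC, known as the brain-type aldolase, had 9.35, 9.52, 10.3, 8.64 and 8.38 CPM at week 0, 31.5, 32.7 and 36.1 CPM (lowest, median, highest) at week 1 and 49.1, 52.9 and 55.8 CPM at week 4. The groups were far apart and did not overlap. ALDOC rose 3.60-fold at week 1 against week 0, 5.71-fold at week 4 against week 0 (log2 2.51 ± 0.06, edgeR adjusted p = 2.1e-19) and 1.59-fold at week 4 against week 1 (log2 0.67 ± 0.05, edgeR adjusted p = 1.8e-09). ALDOA, the muscle-type aldolase, averaged 66.2 ± 2.65 CPM at week 0, 135 ± 15.9 at week 1 and 112 ± 14.7 CPM at week 4. It rose 1.69-fold at week 4 against week 0 (log2 0.76 ± 0.08) and fell 1.20-fold at week 4 against week 1 with overlapping libraries (log2 -0.27 ± 0.08, edgeR adjusted p = 0.0093).

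The level of ALDOA is uncertain, since 42.3% of its exonic bases in GENCODE release 29 are shared with another gene on the same strand. Of ALDOC's exonic bases 10.1%, and of GAPDH's 14.2%, overlap a gene on the opposite strand, and the strand setting of the counting is not given in the sources used here. GAPDH, often used as a reference transcript, was the most abundant member per kilobase in every group. It had 3060.1, 3444, 3325, 3471 and 3331 CPM at week 0, 6422, 6636 and 6926 CPM (lowest, median, highest) at week 1 and 6003, 6216 and 6547 CPM at week 4. The lowest treated library lay above the highest untreated one, and GAPDH rose 1.999-fold at week 1 and 1.89-fold at week 4 against week 0 (edgeR adjusted p = 4.5e-15 and 2.5e-14). TPI1 averaged 781 ± 37.9 CPM at week 0, 1211 ± 41.2 at week 1 and 1143 ± 37.1 CPM at week 4, a rise of 1.46-fold at week 4 against week 0 (log2 0.55 ± 0.04, edgeR adjusted p = 1.6e-10).

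In lower glycolysis, PGK1, PGAM1 and ENO2 rose by both times, while ENO1 did not pass at week 1 and PKM did not pass at week 4, each against week 0. PGK1 and PKM (the muscle-type pyruvate kinase) encode the ATP-yielding kinases, PGAM1 the phosphoglycerate mutase, and ENO1 and ENO2 the ubiquitous and the neuron-type enolase. ENO2 had 82.2, 85.2, 76.3, 89.6 and 87.2 CPM at week 0, 281, 301 and 322 CPM (lowest, median, highest) at week 1 and 319, 334 and 360.1 CPM at week 4. The treated libraries lay well above the untreated ones, and those of weeks 1 and 4 overlapped. ENO2 rose 3.60-fold at week 1 and 3.98-fold at week 4 against week 0 (log2 1.85 ± 0.05 and 1.99 ± 0.05, edgeR adjusted p = 1.7e-18 and 5.9e-19). ENO1 had 2387, 2491, 2693, 2444 and 2375 CPM at week 0, 2390.5, 2462 and 2614 at week 1 and 2583, 2676 and 2799 CPM at week 4. Its libraries overlapped in all comparisons; it did not pass at week 1 (edgeR adjusted p = 0.99; log2 -0.16 and adjusted p = 0.0010 on library totals without factors) and was called 1.08-fold higher at week 4 (log2 0.12 ± 0.04, edgeR adjusted p = 0.021), with the opposite sign on library totals without factors (log2 -0.08, edgeR adjusted p = 0.089). That call was lost in 5 of 30 other settings, where the adjusted p reached 0.20 in edgeR or the other tools. Among them were the fits without week 0 replicate 6 (log2 0.10, edgeR adjusted p = 0.061) and without a filter on low counts (log2 0.10, edgeR adjusted p = 0.12).

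ENO2 made up 3.98 ± 0.385% of the enolase pool per kilobase at week 0, 12.96 ± 0.279% at week 1 and 13.2 ± 0.253% at week 4. The ENO2 to ENO1 ratio at week 4 was 3.67 times that at week 0 (adjusted exact p = 0.0054). PGK1 had 845, 606, 876, 549 and 513 CPM at week 0, 1324, 1353 and 1393 CPM (lowest, median, highest) at week 1 and 1447, 1485 and 1587 CPM at week 4. The 2 highest untreated libraries were replicates 1 and 4, which also held the most ribosomal protein counts, and all treated libraries lay above them. PGK1 rose 2.22-fold at week 4 against week 0 (log2 1.15 ± 0.10, edgeR adjusted p = 1.9e-09), and without those 2 libraries the log2 fold change was 1.28 at week 1 and 1.43 at week 4. At week 4 against week 1 PGK1 did not pass (log2 0.15 ± 0.10, edgeR adjusted p = 0.24), though the libraries did not overlap. It was called higher there without those 2 libraries and with only the groups compared (log2 0.13 to 0.15, edgeR adjusted p = 0.00096 to 0.0012). PGAM1 averaged 275 ± 18.1 CPM at week 0, 438 ± 15.001 at week 1 and 394 ± 17.6 CPM at week 4, a rise of 1.43-fold at week 4 against week 0 and a fall of 1.11-fold at week 4 against week 1 (edgeR adjusted p = 0.0094).

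PKM had 3122, 3070.4, 3599.7, 3096 and 2949 CPM at week 0, 3899, 4016 and 4184 CPM (lowest, median, highest) at week 1 and 2859, 3170.4 and 3271 CPM at week 4. Week 1 lay above both other groups without overlap, and weeks 0 and 4 overlapped. PKM rose 1.27-fold at week 1 against week 0 (log2 0.35 ± 0.05, edgeR adjusted p = 2.3e-06), fell 1.28-fold at week 4 against week 1 (log2 -0.36 ± 0.05, edgeR adjusted p = 2.7e-06) and had a log2 fold change of -0.01 ± 0.05 at week 4 against week 0 (edgeR adjusted p = 0.84). On library totals without factors that last comparison was called lower (log2 -0.21, edgeR adjusted p = 0.00035). The PKM1 and PKM2 splice forms cannot be told apart in counts per gene.

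**Figure D3:**
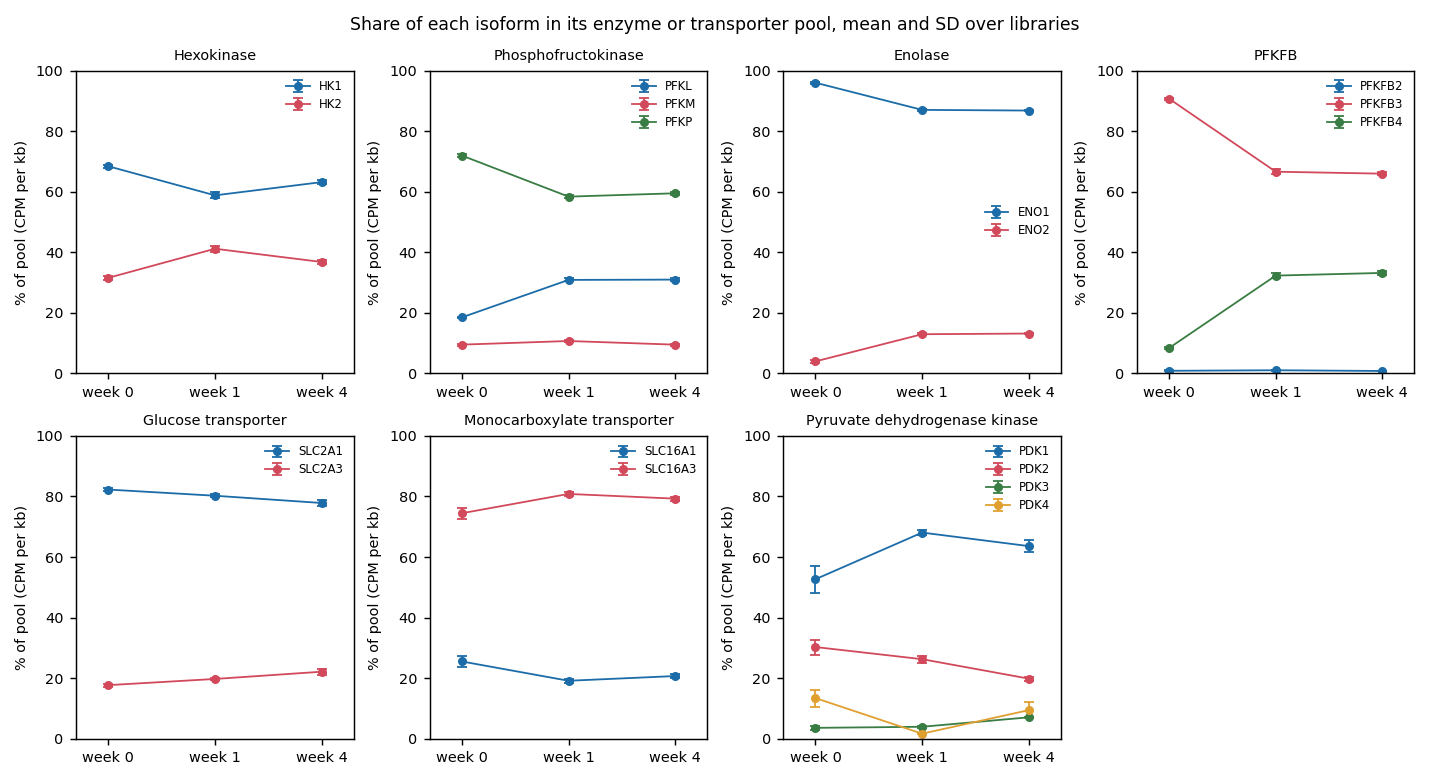
Share of each isoform in its pool at week 0, week 1 and week 4, from CPM per kilobase of the deposited gene length, as mean and SD over 5, 6 and 6 libraries. PFKFB4, ENO2, PFKL and HK2 take larger shares at weeks 1 and 4 than at week 0, and PDK4 is lowest at week 1 (1.68%).

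Among the lactate genes, LDHA and both carriers rose and LDHB fell. LDHA and LDHB encode the subunits of lactate dehydrogenase, of which the A subunit favours lactate formation and the B subunit pyruvate formation. LDHA had 1923, 1843, 2192, 1796 and 1782 CPM at week 0, 2753, 2821 and 2897 CPM (lowest, median, highest) at week 1 and 2725, 2825 and 2921 CPM at week 4. The treated groups overlapped each other and lay above all untreated libraries, with a rise of 1.48-fold at both times (log2 0.56 ± 0.05 at week 1 and 0.57 ± 0.05 at week 4, edgeR adjusted p = 8.0e-10 and 8.5e-10). LDHB was listed at 8.93, 8.25, 10.2, 8.85 and 9.28 CPM at week 0, 5.19, 6.09 and 6.43 at week 1 and 4.92, 5.95 and 6.86 CPM at week 4. Every treated library was below every untreated one, and LDHB fell 1.52-fold at week 1 and 1.56-fold at week 4 (log2 -0.61 ± 0.09 and -0.64 ± 0.09, edgeR adjusted p = 2.3e-06 and 1.1e-06).

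The LDHB to LDHA ratio at week 4 was 0.43 of that at week 0 (adjusted exact p = 0.0054), and it did not pass between weeks 4 and 1 (adjusted exact p = 0.61). The level of LDHB is uncertain: 33.4% of its exonic bases are shared with a gene on the same strand, and pseudogene entries of LDHB held counts equal to 22.8% of its own. SLC16A3 encodes MCT4, known as the lactate exporter of glycolytic cells, and SLC16A1 encodes MCT1, which carries lactate and pyruvate either way. SLC16A3 had 272, 317, 254, 312 and 305 CPM at week 0, 605, 617 and 649 CPM (lowest, median, highest) at week 1 and 527, 542 and 550.2 CPM at week 4. The 3 groups did not overlap. SLC16A3 rose 2.14-fold at week 1 and 1.85-fold at week 4 against week 0 (log2 1.10 ± 0.05 and 0.89 ± 0.05, edgeR adjusted p = 1.8e-14 and 8.6e-13), and fell 1.16-fold at week 4 against week 1 (edgeR adjusted p = 0.0014).

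SLC16A1 averaged 68.6 ± 6.42 CPM at week 0, 102 ± 1.86 at week 1 and 97.0 ± 3.37 CPM at week 4, a rise of 1.41-fold at week 4 against week 0 (log2 0.50 ± 0.05, edgeR adjusted p = 1.2e-08). SLC16A3 took 74.5 ± 1.83% of the pool of both carriers per kilobase at week 0, 80.8 ± 0.619% at week 1 and 79.3 ± 0.625% at week 4. Its ratio to SLC16A1 passed in all 3 comparisons (adjusted exact p = 0.0054).

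With all libraries on the TMM scale, the pyruvate dehydrogenase subunits did not pass against week 0 at either time, and other settings made calls. PDHA1 and PDHB encode the alpha and beta subunits of the E1 enzyme. PDHA1 had 57.2, 62.1, 57.1, 62.6 and 62.1 CPM at week 0, 59.3, 61.4 and 66.3 CPM (lowest, median, highest) at week 1 and 50.6, 57.2 and 60.6 CPM at week 4. Its log2 fold change against week 0 was 0.04 ± 0.05 at week 1 and -0.09 ± 0.05 at week 4 (edgeR adjusted p = 0.49 and 0.13). PDHB had 65.8, 50.1, 65.5, 48.1 and 46.7 CPM at week 0, 55.6, 56.7 and 58.7 at week 1 and 45.8, 50.4 and 52.9 CPM at week 4. Replicates 1 and 4 again held the highest untreated values. With all libraries its log2 fold change against week 0 was 0.04 ± 0.08 at week 1 and -0.14 ± 0.08 at week 4 (edgeR adjusted p = 0.64 and 0.10). Without replicates 1 and 4 it was 0.23 at week 1, which passed (edgeR adjusted p = 5.1e-05), and 0.05 at week 4 (edgeR adjusted p = 0.34), and PDHA1 at week 4 was -0.14, which then passed (edgeR adjusted p = 0.017). PDHB at week 4 was called lower in 5 other settings (log2 -0.34 to -0.19, edgeR adjusted p = 0.00049 to 0.034): on library totals without factors, with a term for the kind of file, in the 13 libraries whose files held counts only, and without week 0 replicate 5 or 6. On library totals PDHA1 was also called lower, by a log2 fold change of -0.12 at week 1 and -0.28 at week 4 (edgeR adjusted p = 0.032 and 2.3e-05).

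Both subunits were called lower at week 4 against week 1 (log2 -0.13 ± 0.05 for PDHA1 and -0.19 ± 0.07 for PDHB, edgeR adjusted p = 0.037 and 0.047), close to the threshold. The PDHA1 call was lost without any 1 of 6 treated libraries (week 1 replicate 1, 2 or 4, week 4 replicate 2, 5 or 6), and the PDHB call without any 1 of 11 treated libraries, where the edgeR adjusted p reached 0.099 and 0.11. For PDHA1, 21.3% of the exonic bases overlap a gene on the opposite strand.

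The 4 kinases that switch pyruvate dehydrogenase off were all higher at week 4 than at week 0, but took different routes. PDK1, known as a hypoxia-responsive kinase, had 67.2, 58.4, 73.2, 59.6 and 58.8 CPM at week 0, 138, 146 and 157 CPM (lowest, median, highest) at week 1 and 171, 182 and 202 CPM at week 4. No groups overlapped, and PDK1 rose 2.32-fold at week 1 and 2.91-fold at week 4 against week 0 (log2 1.22 ± 0.06 and 1.54 ± 0.06, edgeR adjusted p = 6.3e-14 and 1.3e-15). PDK3 had 4.11, 6.32, 5.30, 4.48 and 5.25 CPM at week 0, 9.03, 9.88 and 11.97 at week 1 and 22.4, 23.7 and 26.9 CPM at week 4. Each group lay above the one before it. PDK3 rose 1.98-fold at week 1 against week 0, 4.75-fold at week 4 against week 0 (log2 2.25 ± 0.10, edgeR adjusted p = 8.5e-15) and 2.403-fold at week 4 against week 1 (log2 1.26 ± 0.09, edgeR adjusted p = 3.5e-10).

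PDK4, known to be induced by fasting and fatty acids, had 3.96, 5.39, 4.34, 4.46 and 6.59 CPM at week 0, 0.953, 1.11 and 1.26 CPM (lowest, median, highest) at week 1 and 5.81, 7.73 and 11.8 CPM at week 4. All week 1 libraries were below all others, and the week 4 libraries overlapped those of week 0. PDK4 fell 4.47-fold at week 1 against week 0 (log2 -2.16 ± 0.18, edgeR adjusted p = 5.9e-10), rose 1.71-fold at week 4 against week 0 (log2 0.78 ± 0.17, edgeR adjusted p = 0.00034) and rose 7.66-fold at week 4 against week 1 (log2 2.94 ± 0.18, edgeR adjusted p = 3.4e-11). It was the only member called in opposite directions at weeks 1 and 4 against week 0. PDK2, the widely expressed kinase, averaged 13.4 ± 0.878 CPM at week 0, 20.9 ± 1.01 at week 1 and 21.2 ± 1.38 CPM at week 4, a rise of 1.58-fold at week 4 against week 0 (edgeR adjusted p = 1.7e-09), though 38.6% of its exonic bases overlap a gene on the opposite strand.

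**Figure D4:**
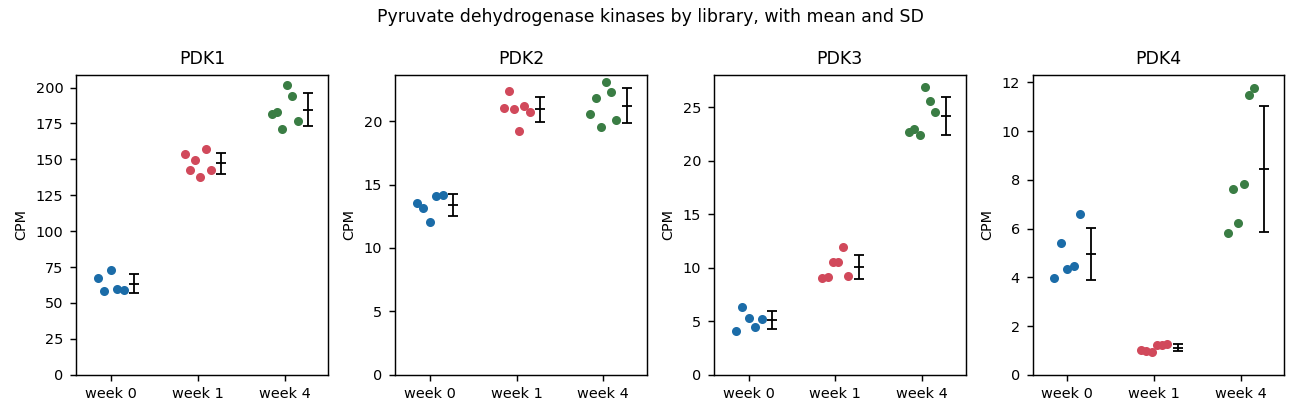
CPM of the 4 pyruvate dehydrogenase kinases in every library at week 0 (n = 5), week 1 (n = 6) and week 4 (n = 6), with mean and SD, on linear axes from 0. PDK1 and PDK3 climb at each step, PDK2 is level between weeks 1 and 4, and PDK4 is lowest at week 1 (0.953 to 1.26 CPM) and spread from 5.81 to 11.8 CPM at week 4.

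Per kilobase of the deposited gene length, the summed kinase pool was 8.10 ± 0.247 CPM per kb at week 0, 14.6 ± 0.603 at week 1 and 19.6 ± 1.35 at week 4. PDK1 was the largest part, at 52.7 ± 4.52%, 68.1 ± 0.914% and 63.6 ± 1.93% of the pool. PDK2 took 30.3 ± 2.48%, 26.3 ± 1.10% and 19.9 ± 0.700%. PDK3 took 3.60 ± 0.626%, 3.96 ± 0.421% and 7.08 ± 0.196%, and PDK4 took 13.4 ± 2.78%, 1.68 ± 0.234% and 9.45 ± 2.55%, in the order of weeks 0, 1 and 4. The share of PDK3 depends on its length, deposited as 17456 bases, where GENCODE release 29 gives 4951 exonic bases. With the GENCODE lengths it took 11.6 ± 1.84%, 12.7 ± 1.23% and 21.2 ± 0.498%, so that at week 4 it lay above PDK2 (16.8 ± 0.619%), while PDK1 was still the largest part (53.9 ± 1.64% at week 4). The pool was then 23.03 ± 1.60 CPM per kb at week 4. Changes of a ratio between groups do not depend on these lengths. The PDK3 to PDK1 ratio did not pass at week 1 against week 0 (adjusted exact p = 0.18) and was 1.64 times as high at week 4 as at week 0 (adjusted exact p = 0.0054). The PDK2 to PDK1 ratio at week 4 was 0.543 of that at week 0 (adjusted exact p = 0.0054).

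Counts in the neighbouring pathways are set beside those over all tested genes, of which 32.9% rose and 34% fell at week 1 and 33.9% rose and 33.7% fell at week 4, each against week 0. Of 20 glycogen genes, 11 rose and 3 fell at week 1 (55.0% and 15%) and 12 rose and 4 fell at week 4 (60.0% and 20.0%), with a median log2 fold change of 0.52 at week 4. GYS1, the muscle-type glycogen synthase, averaged 334 ± 11.7 CPM at week 4, against 105 ± 9.71 CPM at week 0, a rise of 3.17-fold (log2 1.66 ± 0.05, edgeR adjusted p = 3.0e-17). GYG1, which primes glycogen, averaged 61.9 ± 2.42 CPM at week 4, against 84.1 ± 19.9 CPM at week 0 (log2 -0.44 ± 0.10, edgeR adjusted p = 0.00035), and fell by 0.18 on the log2 scale without week 0 replicates 1 and 4. Among 13 tested genes of other sugar and monocarboxylate transport, 9 rose and 1 fell at week 1 (69.2% and 7.69%), and 9 rose and 4 did not pass at week 4 (69.2% rose, against 33.9% of all tested genes), with a median of 0.45 at week 4. SLC2A9, a urate and sugar transporter, rose 2.70-fold. Without week 0 replicates 1 and 4, 7 rose and 2 fell at week 1 and 9 rose and 1 fell at week 4.

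Of 8 pentose phosphate genes, 2 rose and 6 fell at each time against week 0 (25.0% and 75.0%, where 33.9% and 33.7% of all tested genes did at week 4), with a median log2 fold change of -0.51 at week 4. TALDO1, transaldolase, averaged 132 ± 7.59 CPM at week 4, against 234 ± 24.0 CPM at week 0 (log2 -0.83 ± 0.06, edgeR adjusted p = 1.5e-11), while H6PD, the enzyme of the endoplasmic reticulum, rose 1.92-fold. Of 16 genes of the tricarboxylic acid cycle and its shuttles, 4 rose and 10 fell at week 1 (25.0% and 62.5%), and 1 rose and 12 fell at week 4 (6.25% and 75.0%, against 33.9% and 33.7% of all tested genes), with a median of -0.36 at week 4. SUCLG1, of succinyl-CoA ligase, averaged 42.5 ± 2.52 CPM at week 4, against 92.3 ± 39.6 CPM at week 0 (log2 -1.12 ± 0.17, edgeR adjusted p = 4.9e-06), and fell by 0.61 on the log2 scale without week 0 replicates 1 and 4. Without them 10 fell and 6 did not pass at week 4, and OGDH then had a log2 fold change of 0.06 (edgeR adjusted p = 0.14).

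Of 9 other genes of mitochondrial pyruvate use, 2 rose and 2 fell at week 1 (22.2% each, below the 32.9% and 34% of all tested genes). At week 4, 3 rose and 5 fell (33.3% and 55.6%, against 33.9% and 33.7%), or 2 and 3 without week 0 replicates 1 and 4. MPC2, of the mitochondrial pyruvate carrier, rose 1.31-fold at week 4 (log2 0.39 ± 0.11, edgeR adjusted p = 0.0045; log2 0.70 without those libraries). DLAT, the E2 subunit of pyruvate dehydrogenase, averaged 36.4 ± 1.47 CPM at week 4, against 58.4 ± 2.76 CPM at week 0 (log2 -0.68 ± 0.05, edgeR adjusted p = 1.2e-11). Of 10 tested genes among 17 other glycolytic and glycerol phosphate genes, 4 rose and 4 fell at week 1 (40.0% each) and 3 rose and 4 fell at week 4 (30% and 40%), near the shares of all tested genes, with a median of -0.03 at week 1 and -0.12 at week 4. Without week 0 replicates 1 and 4, 11 were tested and the medians turned to 0.28 and 0.09, with 5 higher and 4 lower at week 1 and 3 higher and 4 lower at week 4. TIGAR, which lowers fructose 2,6-bisphosphate, averaged 4.90 ± 0.443 CPM at week 0, 9.85 ± 0.598 at week 1 and 6.48 ± 0.560 CPM at week 4, a rise of 2.01-fold at week 1 and 1.32-fold at week 4 against week 0. GPD2, the mitochondrial glycerol 3-phosphate dehydrogenase, fell 1.61-fold at week 4 against week 0 (edgeR adjusted p = 9.3e-10).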

How the data were processed

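RNA was measured in 17 libraries, grouped by their titles and treatment labels. The authors deposited raw counts per gene symbol for each library, and in 4 of the files also a gene length in bases, used here for values per kilobase. Those 4 were week 0 replicates 5 and 6 and week 1 replicates 1 and 2, so all week 4 files held counts only. The submitters' processing notes list HISAT2 (version 2.0.5.2) with featureCounts (version 1.4.6) and name the mouse build mm10, while the symbols are human. What annotation and strand setting were used is not given in the sources used here. A row with no gene name (0.221% to 0.289% of counts) was left out. No pair of libraries agreed within sampling noise (40 pairs, chi-square per gene at least 7.62).

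The quasi-likelihood test of edgeR (version 4.0.16, under R 4.3.3) was run on the counts (filterByExpr, TMM with factors 0.938 to 1.11, a mean per group over all libraries, biological coefficient of variation 11.7%), with Benjamini-Hochberg adjustment over 16891 genes. Ratios used log2 of counts with 0.5 added. On simulated data for week 1 against week 0 (16649 genes), 89 of 100 genes changed 1.5-fold and 97 of 100 changed 2-fold were recovered, and 8 unchanged genes were called. Only those genes were changed there, as many higher as lower, whereas 66.9% of tested genes were called in the data. The simulation therefore could not test the scaling between groups. The alternatives included DESeq2 1.42.0, limma-voom (limma 3.58.1), other scalings and filters, and libraries left out. Exon overlaps come from GENCODE release 29, and promoters from RefSeq. The members and lists were chosen with earlier results of these data known. All members were named. From each neighbouring list the called gene with the largest rise and fall at week 4 was named (mean of at least 1 CPM). Counts over those lists without week 0 replicates 1 and 4, and values per kilobase of GENCODE exonic length, were added after the data were seen.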

Additional observations from a re-analysis of the deposited data

Results flagged for a closer look

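PDK4 differed between the treated time points: its log2 change against week 0 was 2.94 higher at week 4 than at week 1 (edgeR adjusted p = 3.4e-11), with opposite signs at the 2 times. A single library lay far from the rest of its group in 3 of 93 groups of values checked (31 genes in 3 groups), where chance alone marks about 1 in 20. PFKP had 490.3 CPM in week 1 replicate 4, against 459 to 470.2 CPM in the other week 1 libraries. PKM had 3599.7 CPM in week 0 replicate 4, against 2949 to 3122 CPM in the others, and 2859 CPM in week 4 replicate 6, against 3127 to 3271 CPM in the others.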

How the results depend on the processing

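Over 30 alternatives per comparison, the number of members called stayed within 1.5 times that reported. Every alternative kept 23 of the 25 rises (not PFKFB3 and PFKM) and all 3 falls at week 1 against week 0, 24 of 25 rises (not ENO1) and 1 of 2 falls (not PFKP) at week 4 against week 0, and 8 of 10 rises (not ENO1 and ENO2) and 5 of 7 falls (not PDHA1 and PDHB) at week 4 against week 1, apart from PFKFB2, which the filter of 5 CPM in 5 libraries removed. Leaving out each library in turn gave 28 to 28 members called at week 1 and 27 to 29 at week 4 against week 0, 14 to 18 at week 4 against week 1, and 32 to 35 ratios passing. The members called lower numbered 5 in place of 3 (week 1 against week 0) and 5 in place of 2 (week 4 against week 0) on library totals without factors, and 1 in place of 2 with upper-quartile factors. At week 4 against week 1 they numbered 12 in place of 7 with only the groups compared and 11 without week 0 replicates 1 and 4, where 26.1% and 22.8% of all tested genes were called lower, against 18.6% as reported. In the 13 libraries whose files held counts only, 20 ratios passed in place of 34, where 4 against 3 libraries cannot go below an exact p of 0.057 at week 1 against week 0. Replicate numbers did not pair the libraries: the deviations of 16 same-numbered pairs correlated at -0.041 to 0.055, and 2 of 17 libraries correlated best with their own number. With the replicate number as a block, 28, 27 and 16 members were called in the 3 comparisons (11096, 11180 and 6669 of all genes), and the only member call to change was PDHA1 at week 4 against week 1 (adjusted p = 0.057). With GENCODE exonic lengths in place of the deposited ones, the order within the pools changed only among PDK2, PDK3 and PDK4. Glycogen genes numbered 13 higher and 2 lower at week 1 and 12 higher and 5 lower at week 4 without week 0 replicates 1 and 4.

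Changes of sign touched members that were not called, apart from ENO1 at week 4 against week 0 (-0.077 on library totals without factors). The other values, as log2 fold changes whose cause was not tested, follow. At week 1 against week 0, ENO1 was 0.018 with RLE factors, 0.071 with upper-quartile factors, 0.014 with the stricter filter, 0.018 in DESeq2, 0.00060 in limma-voom, 0.0023 with the replicate block, 0.0049 with only the groups compared and 0.020 without week 0 replicates 1 and 4. PDHA1 was -0.12 and PDHB -0.12 on library totals, PDHB was -0.11 in the libraries with counts only, and PDHA1 was -0.011 without week 0 replicates 1 and 4. At week 4 against week 0, PKM was 0.056 with upper-quartile factors, 0.011 with the stricter filter and 0.044 without week 0 replicates 1 and 4, PDHB was 0.048 without those replicates, and PFKM was -0.079 on library totals. At week 4 against week 1, LDHA was -0.0038 with RLE factors and in DESeq2, -0.00096 with upper-quartile factors, -0.029 on library totals, -0.0069 without a filter, -0.026 with a file class term, -0.013 with only the groups compared, -0.0035 in the libraries with counts only and -0.012 with the gene length correction. GPI was -0.020 on library totals, -0.0035 with only the groups compared and -0.074 with the length correction, PDK2 was -0.011 on library totals, LDHB was 0.013 with the length correction, and SLC2A1 was 0.010 and PFKFB2 0.027 with a file class term. Over single libraries left out, ENO1 ranged from -0.016 to 0.030 and PDHB from -0.013 to 0.11 at week 1 against week 0, and PKM from -0.039 to 0.036 at week 4 against week 0. The ranges at week 4 against week 1 were -0.0079 to 0.012 for LDHA, -0.0056 to 0.043 for PDK2, -0.0026 to 0.026 for GPI, -0.084 to 0.013 for LDHB, -0.034 to 0.013 for SLC2A1, -0.099 to 0.016 for PFKFB2 and -0.081 to 0.0032 for the LDHB to LDHA ratio. Low members such as PFKFB2 and PDK4 rest on the fewest counts, which limits their precision.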
